A study of Bos taurus with 12 samples.

Results

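The proteasome subunits and the enzymes that load ubiquitin were compared between epithelium and intralobular stroma of the bovine mammary gland. Members were taken by symbol: probe sets with a single gene symbol that starts with PSMA, PSMB, PSMC, PSMD, PSME or UBE2, or that is UBA1, UBA2, UBA3 or UBA6. This gave 80 probe sets of 24016 that are not controls, and 66 genes of 9155. There were 16 genes of the core particle (PSMA and PSMB), 19 of its regulators (PSMC, PSMD and PSME), 26 of the ubiquitin-conjugating family (UBE2) and 4 activating enzymes (UBA). The last of the 66, PSME3IP1, shares the letters of PSME but encodes a protein that interacts with PSME3 and is no subunit.

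Ubiquitin is activated by an E1 enzyme, passed to an E2 conjugating enzyme and attached to a target protein with the help of an E3 ligase. Chains of ubiquitin mark a protein for the proteasome, a barrel of alpha and beta subunits in which the beta subunits cut, capped by a regulatory particle that binds, unfolds and feeds in the substrate. In cells that see interferon, the catalytic beta subunits can be replaced by the immune subunits PSMB8, PSMB9 and PSMB10, which alter the peptides made for antigen presentation. Relatives of ubiquitin such as NEDD8, SUMO, ISG15 and FAT10 use their own E1 and E2 enzymes.

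The 6 animals were dry Holstein cows 3 weeks before calving, and the labels give lactation number 1 for 4 of them, 2 for 1 and 3 for 1, whereas the methods call all of them multiparous. Biopsied explants were cultured for 2 h with insulin, hydrocortisone and the DNA label BrdU, so that both tissues carry these treatments and there was no uncultured control. Epithelium and intralobular stroma were then cut from frozen sections by laser capture microdissection, which gave 6 arrays of each tissue, with both captures of a cow sharing a replicate number. Lysates of several slides were pooled for each capture, more slides for stroma than for epithelium, and the RNA was amplified before hybridization to the Bovine GeneChip. The captures are tissue areas that can hold several cell types, although per the methods vessels and visible immune cells were avoided in stroma. Values are log2 intensities without a known read or molecule depth, so the number of arrays limits the precision, and a difference is the stromal minus the epithelial value.

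The labels were borne out by the markers of each tissue. Markers of other cell types also differed between the captures, and the purity of either capture was not measured. Of 15 luminal epithelial markers, 13 were higher in epithelium, where their mean lay between 6.97 and 7.90 per array against 3.87 to 5.51 in stroma. All 12 tested fibroblast markers were higher in stroma, with array means of 9.21 to 10.2 against 3.52 to 5.61. Markers of endothelium (5 of 6), plasma cells (3 of 3), smooth muscle and pericytes (2 of 4) and myoepithelium (1 of 6) were also called higher in stroma. Of 3 Schwann cell markers, 1 was called higher in epithelium. Of all tested genes, 4.48% were called higher in stroma and 4.62% higher in epithelium. The poly-A control probe sets averaged 2.91 to 6.05 on the epithelial arrays and 3.88 to 9.99 on the stromal arrays, with stroma of cows 4, 5 and 6 at 8.27, 9.99 and 9.45. The 3' minus 5' difference of the GAPDH probe sets, which is larger where amplified RNA is short, was 0.93 to 3.59 in epithelium and 2.31 to 4.75 in stroma. The paper reports low GAPDH 3' to 5' ratios and judged the starting RNA suitable. The log2 RMA differences given here may not be the same measure, and the gap between the 2 was not tested.

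Of the 66 genes, 60 passed the filter on low values and were tested: 16 core, 18 regulatory, 22 conjugating and 4 activating. Most had lower mean values in stroma, but few differences passed the test. UBE2Z, PSMA5 and PSMB3 were higher in epithelium (adjusted p under the threshold of 0.05 by limma with cow as a block), and no member was higher in stroma. These 3 of 60 genes are 5%, where 4.62% of all 5222 tested genes were called higher in epithelium and 4.48% higher in stroma, so the share of members called was near the background. In either direction, 9.1% of all tested genes were called. Without the adjustment, 13 members (21.7%) had p under 0.05 in the epithelial direction against 14.6% of all tested genes, and 0 members in the stromal direction against 8.39%. In 48 of 60 members (80%) the mean difference was below 0, against 60% of all tested genes. That background share depended on the filter: it was 49.7% without a filter and 66.4% with the brightest 5000 probe sets. The members had 77.3% and 88.1% in these settings. Members were brighter than all tested genes (median level 5.86 against 5.28), and the part of level in these shares was not tested. The median difference was -0.57 over the members and -0.20 over all tested genes. Of the members, 10 (16.7%) were lower in stroma in all 6 cows, against 9.59% of tested genes, and 0 were higher in stroma in all 6 cows, against 6.99%. For 0 members did the epithelial and stromal arrays separate without overlap, against 2.97% of tested genes higher in epithelium and 3.41% higher in stroma. These counts take the brightest probe set of a gene. On simulated data the fit called 0% of log2 changes of 1 and 20% of changes of 2. A member without a call can therefore still differ. Fewer probe sets were changed in the simulation than were called in the data, so these rates need not hold for the data. In such captures, fewer cells of a type and less RNA per cell cannot be told apart.

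**Figure D1:**
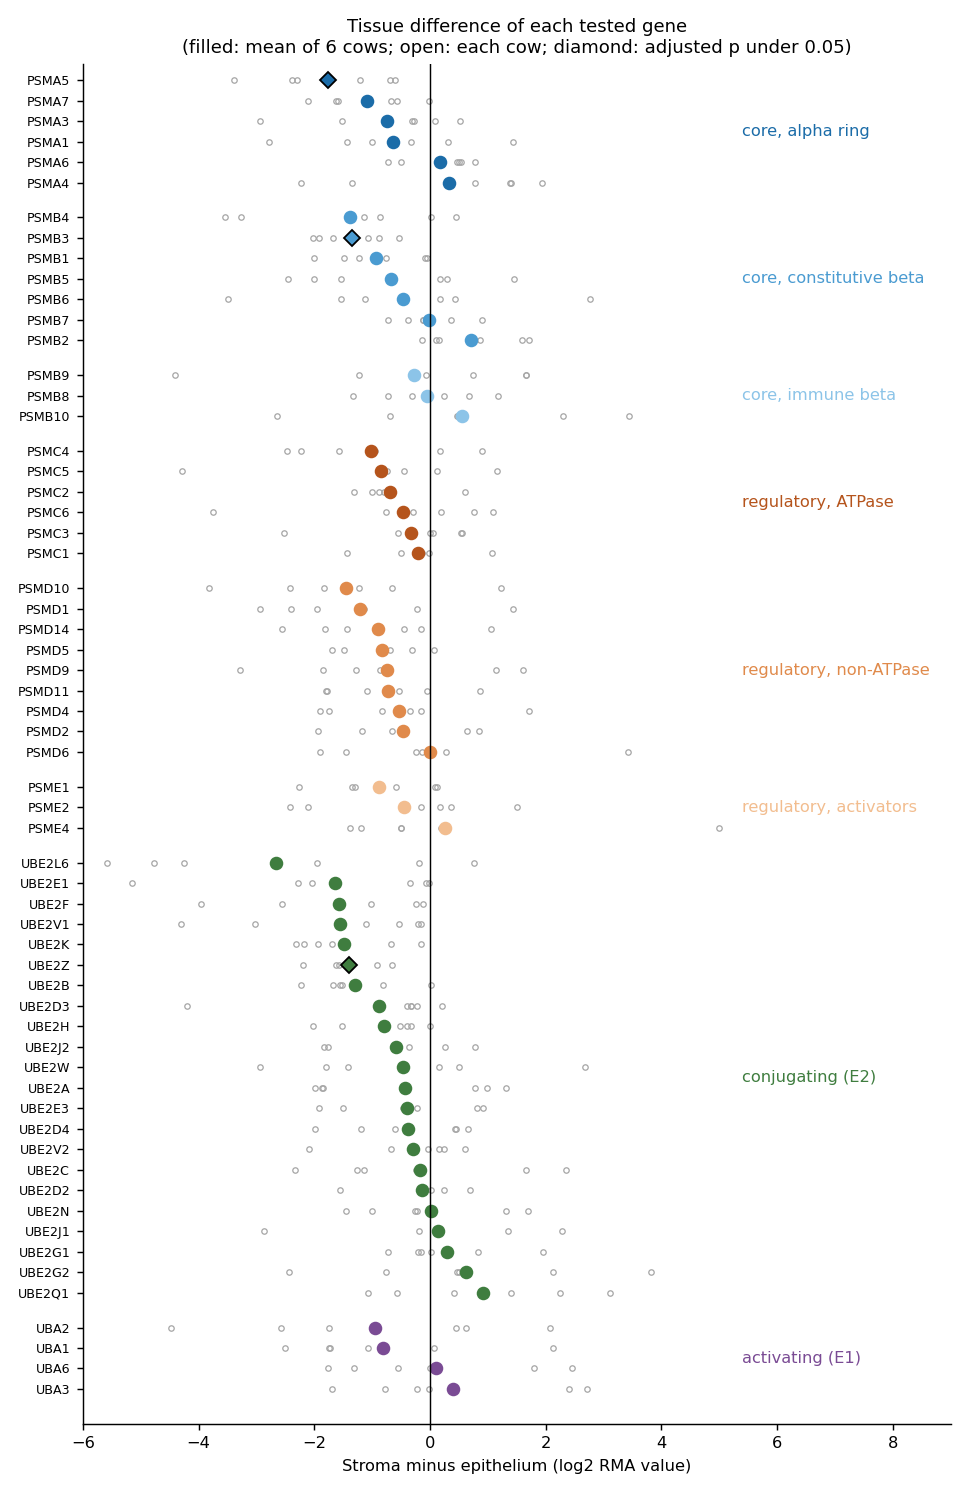
Stroma minus epithelium difference (x axis, log2) of the 60 tested genes, grouped by role, with the mean of 6 cows as a filled point, each cow as an open point and a diamond for adjusted p under 0.05. Most means lie left of 0, the 3 diamonds are UBE2Z, PSMA5 and PSMB3, and the cows of a gene are spread widely around its mean.

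The core particle held both called proteasome genes. Of its 16 genes, 2 were higher in epithelium, 5 had an unadjusted p under 0.05, 12 had a mean difference below 0 and 4 were lower in stroma in all 6 cows. These are 12.5%, 31.2%, 75% and 25%, against 4.62%, 14.6%, 60% and 9.59% of all tested genes. The median difference was -0.55, with the middle of the genes between -0.98 and 0.03. The alpha subunits, which form the outer rings and the gate of the barrel, had a median of -0.69 over 6 genes, and the constitutive beta subunits a median of -0.68 over 7.

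PSMA5, an alpha subunit, read 6.31, 6.74, 5.47, 5.85, 5.55 and 5.95 in epithelium of cows 1 to 6 and 5.61, 5.53, 3.17, 5.24, 3.16 and 2.56 in stroma. Stroma was lower in every cow, by the least in cow 4 and by the most in cow 6, and stroma of cows 3, 5 and 6 lay near the array medians of 2.95 to 3.08, while the highest stromal values overlapped the lowest epithelial ones. The mean difference was -1.77 (95% interval -2.80 to -0.73), which is 3.40-fold higher in epithelium, with an adjusted p of 0.0455 (limma). PSMB3, a beta subunit that does not itself cut, read 6.34, 5.84, 7.14, 6.17, 6.02 and 6.58 in epithelium and 5.46, 3.93, 6.06, 4.15, 4.35 and 6.04 in stroma. Here too every cow had the lower value in stroma, and the groups overlapped. The mean difference of PSMB3 was -1.35 (95% interval -2.16 to -0.54), 2.55-fold higher in epithelium, with an adjusted p of 0.0498 (limma).

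Both calls lay close to the threshold and were lost when any single cow was left out, with adjusted p between 0.0570 and 0.108 for PSMA5 and between 0.0605 and 0.134 for PSMB3, the directions staying the same. With tissue alone in the model, as the study fitted it, adjusted p was 0.0705 for PSMA5 and 0.0824 for PSMB3, and with cow as a random block it was 0.0501 and 0.0584.

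The other core genes did not pass. PSMA7, the next alpha subunit by size, had its lower value in stroma in 6 of 6 cows and averages of 8.86 (epithelium) and 7.76 (stroma), a difference that missed the threshold (-1.10, adjusted p 0.127, limma). PSMB1 was likewise lower in stroma in 6 of 6 cows (-0.94, adjusted p 0.190), and PSMB4 in 4 of 6 (-1.39, adjusted p 0.201). PSMB2 had the largest difference toward stroma among the core genes: its epithelial values were 6.43, 5.45, 5.80, 6.12, 6.65 and 6.87 and its stromal values 6.58, 7.16, 5.91, 6.99, 6.52 and 8.46. Stroma was the higher tissue in all cows but cow 5, and the groups overlapped. The mean difference of 0.72 (95% interval -0.18 to 1.61) had an adjusted p of 0.311 (limma), and the second probe set of PSMB2 gave 0.85. Among the alpha subunits, PSMA4 had the largest difference toward stroma, 0.32, with an adjusted p of 0.792.

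The immune subunits were compared with the constitutive subunits they replace. PSMB8 read 8.50, 8.00, 10.2, 8.98, 9.82 and 9.24 in epithelium and 7.17, 8.67, 9.50, 10.2, 9.51 and 9.47 in stroma, so that the tissues overlapped, with the lowest value in stroma of cow 1, and 3 of 6 cows were higher in each. Its mean difference was -0.05 (95% interval -0.996 to 0.90). PSMB9 had a mean difference of -0.27 (95% interval -2.02 to 1.48), and its stromal values lay between 5.82 and 7.93 in 5 cows but at 2.95 in cow 5. Without cow 5 the difference of PSMB9 was 0.55 (adjusted p 0.585, limma). PSMB10 had a mean difference of 0.56 (95% interval -1.10 to 2.21). The constitutive counterparts had differences of -0.68 for PSMB5, -0.46 for PSMB6 and -0.01 for PSMB7, and none of these 6 genes passed the test.

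Within cows, the difference of PSMB8 exceeded that of PSMB5 by 0.63 ± 1.62 (SD, n = 6), in 4 of 6 cows (exact sign-flip permutation test, two-sided, p = 0.438, adjusted over the 3 pairs 0.797). For PSMB9 against PSMB6 the excess was 0.19 ± 3.03 (SD, n = 6), with cow 2 at 4.25 and cow 5 at -4.83 (exact permutation p = 0.844, adjusted 0.844). For PSMB10 against PSMB7 it was 0.57 ± 1.97 (SD, n = 6), positive in 3 of 6 cows (exact permutation p = 0.531, adjusted 0.797). The smallest p that 6 cows allow in this test is 0.0312. The spread between cows was larger than each of these mean excesses. Macrophage markers averaged 4.22 to 5.21 on epithelial and 5.05 to 6.03 on stromal arrays. Their mean was higher in stroma of 6 of 6 cows, with 0 of 7 called. T and NK cell markers averaged 5.34 to 6.42 on epithelial and 5.52 to 6.70 on stromal arrays, with 0 of 6 called. Of all tested genes 9.1% were called in either direction. Visible immune cells were avoided at capture per the methods, and the part of such cells in the values of PSMB8, PSMB9 and PSMB10 was not tested. In the reference annotation PSMB8, TAP1 and PSMB9 are consecutive coding genes on chromosome 23, and TAP1, a subunit of the transporter that carries peptides to the endoplasmic reticulum, had a difference of -0.31 (adjusted p 0.671, limma).

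With all 6 cows, the regulators of the proteasome had the most uniform direction and no call. Of 18 tested genes, 17 (94.4%) had a mean difference below 0, against 60% of all tested genes. The median was -0.71, with a range of -1.45 to 0.27. The 17 include PSMD6 at -0.01. The count was 15 of 18 without cow 2, without cows 5 and 6, and without cows 4, 5 and 6. In the last of these settings 14 of 16 core genes were below 0, against 55.3% of all tested genes. None was called in either direction, against 9.1% of all tested genes. An unadjusted p under 0.05 was met by 1 (5.56%), against 14.6% in the epithelial direction. Lower in stroma in all 6 cows were 0, against 9.59%. In a group of 18 genes such low counts are not read as a result. The means shared a direction, while at least 1 cow of each gene ran the other way on its brightest probe set. All 6 ATPase subunits (PSMC), which unfold the substrate, were below 0, with a median of -0.57, and all 9 tested PSMD genes were below 0, with a median of -0.75.

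PSMC4 had the largest ATPase difference, -1.03 (adjusted p 0.266, limma), with stroma lower in 4 of 6 cows. Its stromal value was 6.24 in cow 2 and 3.40 to 4.23 in the other cows, against 4.02 to 6.46 in epithelium. On its brightest probe set PSMC6 had stromal values of 5.63 to 6.49 in 5 cows and 2.50 in cow 5. The difference of -0.46 on that probe set became 0.19 without cow 5. The second tested probe set of PSMC6, of similar brightness, gave -0.43. It read 5.59 in stroma of cow 5, above the 4.09 in epithelium of that cow. PSMC2, with a pair of tested probe sets, had differences of -0.68 and -1.20. On the dimmer of the pair, which did not enter the counts above, stroma was lower in 6 of 6 cows and the tissues did not overlap, at 8.25 to 8.48 in epithelium and 5.29 to 8.15 in stroma (adjusted p 0.127, limma).

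PSMD10, or gankyrin, an assembly chaperone of the regulatory particle, had the largest regulatory difference. It read 5.81, 4.41, 4.89, 6.01, 4.54 and 7.41 in epithelium and 3.97, 3.75, 6.12, 3.60, 3.30 and 3.60 in stroma. In 5 of 6 cows stroma was lower, and cow 3 ran the other way. The mean difference was -1.45 with an adjusted p of 0.189 (limma), and without cow 3 it was -1.99 with an adjusted p of 0.0615. PSMD1, a scaffold subunit, had a difference of -1.20 (adjusted p 0.253), with stroma lower in 5 of 6 cows. At the other end, PSMD6 had a difference of -0.01 (adjusted p 0.997), and its second probe set gave -0.76.

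The activators PSME1 and PSME2 form an alternative cap that interferon induces, and PSME4 encodes another cap. PSME1 averaged 9.29 in epithelium and 8.41 in stroma (difference -0.88, 95% interval -1.83 to 0.07, adjusted p 0.247, limma). Its epithelial values kept between 9.14 and 9.61, while its stromal values ran from 6.90 in cow 4 to 9.41 in cow 6. PSME2 had a difference of -0.44 (adjusted p 0.678). PSME4 was the only regulator with a mean difference above 0, at 0.27 (adjusted p 0.875). That sign rested on epithelium of cow 3, at 2.60 against 7.45 to 7.98 in the other cows, and the stromal values were 6.41 to 7.97. Without cow 3 the difference of PSME4 was -0.68 (adjusted p 0.372).

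**Figure D2:**
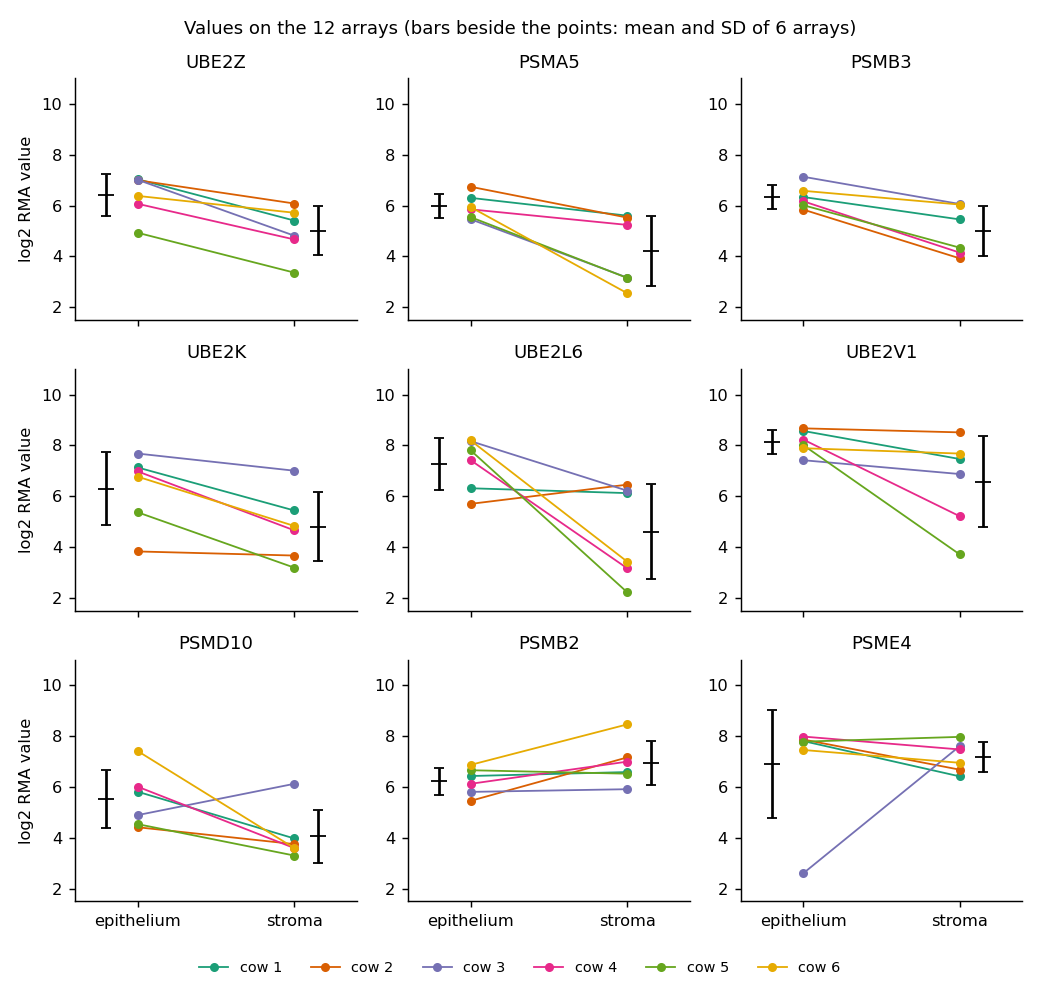
Log2 values (y axis) of 9 genes in epithelium and stroma, with a line joining the captures of each cow and bars for the mean ± SD of 6 arrays. The lines of UBE2Z, PSMA5, PSMB3, UBE2K and UBE2V1 all run downward to stroma, whereas those of PSMB2 mostly run upward and PSME4 has a single low epithelial array.

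The activating enzymes gave no call, against 9.1% of all tested genes in either direction. Of their 4 differences 2 were below 0, against 60% of all tested genes, and the median was -0.35. UBA1, the main ubiquitin E1, averaged 9.34 in epithelium and 8.53 in stroma (-0.81, adjusted p 0.457, limma), with stroma lower in 4 of 6 cows. UBA6, the E1 for ubiquitin and FAT10, had a difference of 0.11 (adjusted p 0.936). UBA2, the catalytic subunit of the SUMO E1, had -0.94 (adjusted p 0.522), and its stromal values spread from 1.90 in cow 5 to 7.11 in cow 6. UBA3, the catalytic subunit of the NEDD8 E1, had 0.40 (adjusted p 0.745).

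Among the conjugating enzymes, 1 of 22 tested genes (4.55%) was called, higher in epithelium, 7 (31.8%) had an unadjusted p under 0.05 in that direction, and 6 (27.3%) were lower in stroma in all 6 cows. Of all tested genes, 4.62%, 14.6% and 9.59% met these criteria. In 17 of 22 (77.3%) the difference was below 0, against 60% of all tested genes. The median was -0.45 and the range, -2.66 to 0.92, was the widest of the groups.

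UBE2Z, which works with UBA6 and can load ubiquitin or FAT10, was the called enzyme. It read 7.04, 7.00, 7.01, 6.07, 4.93 and 6.38 in epithelium and 5.41, 6.08, 4.82, 4.67, 3.37 and 5.72 in stroma. Every cow had the lower value in stroma, and the epithelial values of cows 4 and 5 lay within the stromal range. The mean difference was -1.39 (95% interval -2.19 to -0.60), 2.63-fold higher in epithelium, with an adjusted p of 0.0406 (limma). The call was lost when any single cow was left out (adjusted p 0.0541 to 0.114) with tissue alone in the model (adjusted p 0.110) and with cow as a random block (0.0791).

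UBE2Z belongs with UBE2F and UBE2L6 among the E2 enzymes that carry relatives of ubiquitin, and these 3 had a median difference of -1.57, each with an unadjusted p under 0.05 (14.6% of all tested genes) and 1 called (4.62%). UBE2F, an E2 for NEDD8, had a difference of -1.57 and was lower in stroma in 6 of 6 cows (adjusted p 0.120, limma). UBE2L6, the interferon-induced E2 for ISG15, read 6.31, 5.70, 8.17, 7.42, 7.81 and 8.20 in epithelium and 6.12, 6.46, 6.22, 3.17, 2.23 and 3.44 in stroma. Its stromal values formed a higher and a lower set, with cows 1 to 3 above 6 and cows 4 to 6 near the array medians. The mean difference of -2.66 (95% interval -4.60 to -0.72) was the largest of all members, with an adjusted p of 0.0934 (limma). It passed with tissue alone in the model (adjusted p 0.0458) and with cow as a random block (0.0373), and without cows 4, 5 and 6 it was -0.46 (adjusted p 0.771). The second probe set of UBE2L6, too dim to be tested, gave 0.05 with stroma higher in 4 of 6 cows. The same 3 stromal arrays had the highest poly-A control signals (8.27 to 9.99, against 3.88 to 6.52 in stroma of cows 1 to 3), and the part of this in the UBE2L6 values was not tested.

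The next enzymes by size were lower in stroma in most cows without passing the test. UBE2K, which builds chains that mark proteins for the proteasome, was lower in stroma in 6 of 6 cows, with a difference of -1.49 (95% interval -2.42 to -0.57) and an adjusted p of 0.0547 (limma). UBE2E1 had a difference of -1.65 (adjusted p 0.185, 6 of 6 cows). UBE2V1, a partner without catalytic activity that directs UBE2N to another type of chain, read 7.42 to 8.67 in epithelium and 3.71 to 8.51 in stroma, lower in stroma in 6 of 6 cows (-1.56, adjusted p 0.162). UBE2B, one of a pair of enzymes known from DNA damage tolerance, had a difference of -1.29 (adjusted p 0.0774, 5 of 6 cows), and its other probe set gave -2.69 (adjusted p 0.0765). UBE2B passed with cow as a random block (adjusted p 0.0484) and with the mean over its probe sets (0.0422). UBE2A, the other enzyme of that pair, had probe sets that disagreed, at -0.44 and 0.78.

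In the direction of stroma, UBE2Q1 had the largest difference of all members, 0.92 (95% interval -0.41 to 2.25, adjusted p 0.384, limma). It read 7.65, 7.12, 7.65, 6.71, 5.94 and 6.59 in epithelium and 7.08, 7.54, 6.58, 8.11, 8.19 and 9.70 in stroma. The stromal values of cows 4 to 6 stood above all epithelial values, whereas those of cows 1 to 3 lay among them, and without cows 4, 5 and 6 the difference was -0.41. The 5 enzymes of degradation at the endoplasmic reticulum (UBE2G1, UBE2G2, UBE2J1, UBE2J2 and UBE2K) had a median of 0.14, with 2 below 0 and 0 called. Of all tested genes 60% were below 0 and 9.1% were called in either direction. Of these, UBE2G2 had a difference of 0.62 (adjusted p 0.659). Its second probe set, too dim to be tested, gave 0.85 with stroma higher in 6 of 6 cows. UBE2C, the enzyme of the anaphase-promoting complex and a marker of dividing cells, had a difference of -0.17 (adjusted p 0.904).

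Members left out by the filter had low values in both tissues. UBE2E2, UBE2L3, UBE2S, UBE2T, PSMD13 and PSME3IP1 were not tested, and PSME3IP1, for example, averaged 3.28 in epithelium and 2.76 in stroma. Of 11 genes with a pair of tested probe sets, 9 gave differences of the same sign and 2 (UBE2A and UBE2V2) of opposite sign.

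Group medians were then taken within each cow. For cows 1 to 6 the regulatory median was -0.42, -0.66, -0.68, -0.21, -1.26 and -0.76. The conjugating median was -0.59, -0.29, -0.44, -0.94, -0.39 and -0.24. Both were below 0 in every cow. The core median was -0.44, -0.71, -1.04, 0.17, -0.23 and 0.26, so that it was above 0 in cows 4 and 6. The median of all tested genes was also below 0 in every cow, between -0.26 and -0.03. Set against it, the conjugating median was lower in 6 of 6 cows, the regulatory median in 5 and the core median in 3.

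**Figure D3:**
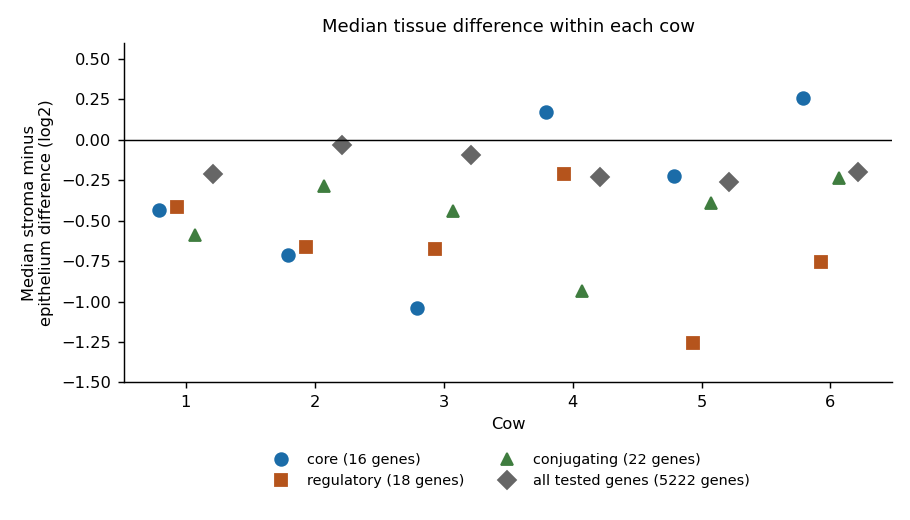
Median stroma minus epithelium difference (y axis, log2) within each of 6 cows (x axis) for 16 core, 18 regulatory and 22 conjugating genes, with grey diamonds for all 5222 tested genes. Regulatory and conjugating medians are below 0 in all cows, and the core median is above 0 in cows 4 and 6.

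The spread between cows was larger in stroma. The median SD of the members was 0.79 over epithelial and 1.18 over stromal arrays, against 0.74 and 0.99 for all tested genes, and the stromal SD was the larger in 47 of 60 members (78.3%) against 68.3% of tested genes. Stroma of cow 5 held the lowest of the 12 values for 27 of 60 members (45%), against 19.8% of tested genes, and it also had the highest poly-A control signal, 9.99, whose part in these values was not tested. Without cow 5 the medians were -0.73 for core, -0.54 for regulatory and -0.66 for conjugating genes. In that setting 46 of 60 members (76.7%) had a difference below 0, against 58.9% of tested genes. Without cow 2 the core median was -0.26 and the conjugating median -0.22, against -0.23 for all tested genes, and without cow 3 the core median was -0.27. The regulatory median was -0.81 without cow 2 and -0.68 without cow 3.

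**Figure D4:**
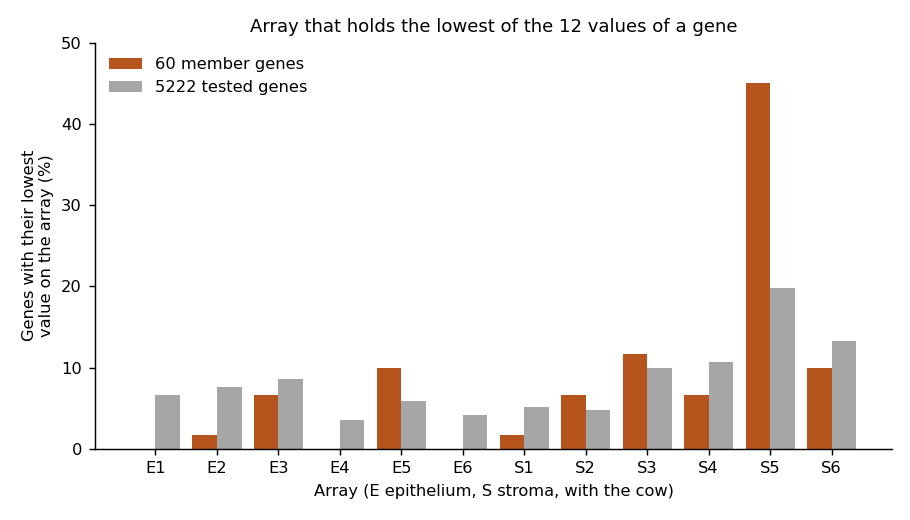
Share of genes (y axis, percent) whose lowest of 12 values falls on each array (x axis, E for epithelium and S for stroma, with the cow), for 60 members and 5222 tested genes. Stroma of cow 5 holds the lowest value of 45% of members and 19.8% of all tested genes.

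Other genes of the pathway were taken from 7 lists of assembly factors, receptors and deubiquitinases, the VCP segregase, ligases, enzymes of other modifiers, transcription factors of proteasome genes and antigen processing. Of 72 tested genes, 4 (5.56%) were higher in epithelium and 0 in stroma, near the 4.62% of all tested genes called higher in epithelium. In 54 (75%) the difference was below 0, against 60%, and the median was -0.42, against -0.20. Protein ubiquitination is a theme the study drew from these same samples, so the direction of these lists and of the members is no independent evidence. Per the paper, it was the most enriched canonical pathway among genes higher in epithelium. Genes entered that enrichment at p under 0.05, with tissue alone in the model. The calls here use adjusted p with cow as a block, so the counts are not the same measure.

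UCHL5, a deubiquitinase bound to the proteasome, was 5.18-fold higher in epithelium (difference -2.37, 95% interval -3.40 to -1.34, adjusted p 0.0125, limma). It read 6.89, 6.52, 3.90, 5.80, 6.23 and 5.70 in epithelium and 4.02, 4.25, 2.19, 3.47, 2.10 and 4.78 in stroma. Stroma was lower in 6 of 6 cows, and only the epithelial value of cow 3 lay within the stromal range. The stromal values of cows 3 and 5 lay below the array medians of 2.95 to 3.08, so they may be background. The call held when any single cow was left out (adjusted p 0.0138 to 0.0488) and was lost without cows 4, 5 and 6 (0.0882). For UBQLN1, a shuttle that carries ubiquitinated proteins to the proteasome, epithelium was higher by 4.06-fold (-2.02, adjusted p 0.0249). On this brightest probe set the lowest epithelial value, 6.66, lay above the highest stromal value, 6.47, as for 2.97% of tested genes. The call was lost without cow 1 (adjusted p 0.0796, limma), cow 2 (0.0768) or cow 4 (0.0630), and without cows 4, 5 and 6 (0.113). With the mean over the probe sets of UBQLN1 the difference was smaller, -1.39 (adjusted p 0.0411, limma).

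Among 25 tested ligase genes, 2 (8%) were called, both higher in epithelium, against 4.62% of all tested genes. NEDD4L, a ligase of membrane channels and transporters, read 6.34, 7.85, 2.48, 6.72, 6.58 and 7.41 in epithelium and 3.12, 3.32, 2.25, 3.43, 2.65 and 1.78 in stroma. The stromal values lay near the array medians, and so did the epithelial value of cow 3. The difference was -3.47 (95% interval -4.92 to -2.03, adjusted p 0.0107, limma). The call was lost without cows 5 and 6 (adjusted p 0.0750, limma) and without cows 4, 5 and 6 (0.197). FBXW7, the substrate receptor of a cullin ligase, had a difference of -2.80 (adjusted p 0.0215), with stroma lower in 6 of 6 cows. Its call was lost without cow 1 (adjusted p 0.0636, limma), cow 2 (0.0510) or cow 6 (0.0632), and without a filter on low values (0.0562). It was also lost without cows 5 and 6 (0.126) and without cows 4, 5 and 6 (0.154).

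**Figure D5:**
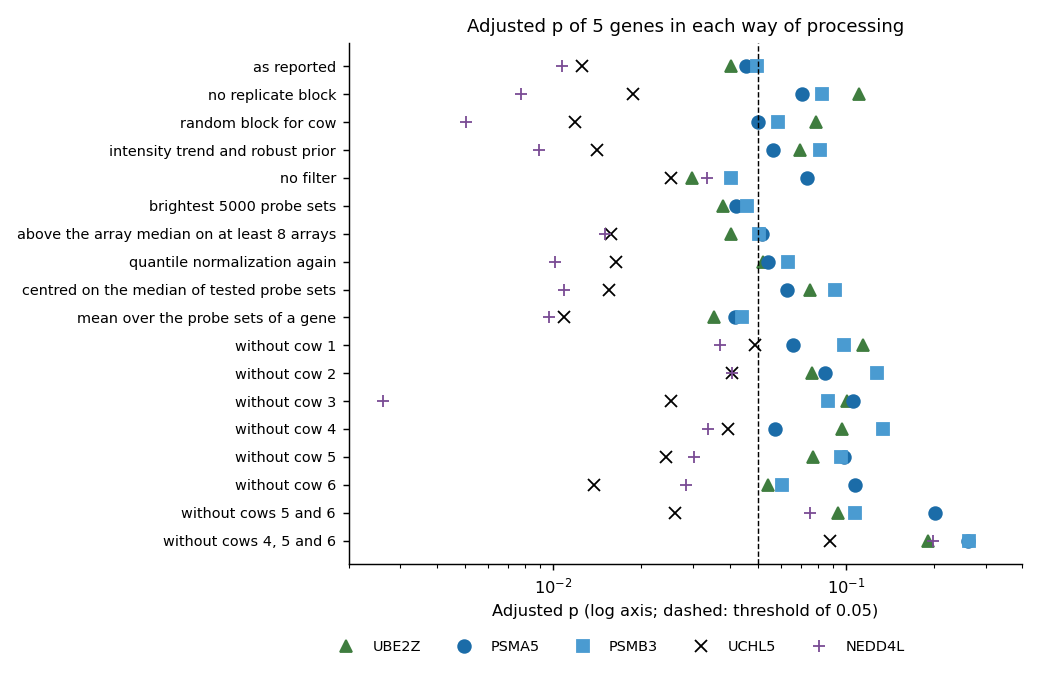
Adjusted p (x axis, log scale) of UBE2Z, PSMA5, PSMB3, UCHL5 and NEDD4L in 18 settings of the analysis (y axis), with a dashed line at the threshold of 0.05. The 3 members sit on both sides of the line and right of it whenever a cow is left out, while UCHL5 is left of it in every setting that tested it but the one without cows 4, 5 and 6.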

How the data were processed

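Log2 intensities of 12 Bovine GeneChip arrays were used as deposited. Per the methods, the authors made them by RMA with quantile normalization over 24 arrays; other steps and their versions are not given in the sources used here. Amplification and joint normalization can compress differences, and a value near the array medians (2.95 to 3.08) may be background. The labels and the methods differ in hormone concentrations, so none is given.

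Of 24128 probe sets, 112 are controls. The 41.8% with the highest mean were tested, in place of the detection calls of the study, which were not used here. limma 3.58.1 in R 4.3.3, with the package data.table (version 1.17.8), fitted tissue with cow as a fixed block, and p was adjusted by Benjamini-Hochberg over all tested probe sets (threshold 0.05). The study's methods fitted tissue alone, which is an alternative here. A gene is its brightest tested probe set with 1 symbol, which gave 5222 genes from 6478 probe sets. All 66 member symbols matched the reference annotation (ARS-UCD assembly) by gene ID. Subunit pairs were compared within the 6 cows by flipping signs (exact permutation). The fit was tested on simulated data with 50 probe sets changed at each size. It called 0% of log2 changes of 1, 20% of changes of 2, 72% of changes of 3 and 82% of changes of 4. In the data more probe sets were called than the simulation changed, 477 of 10031 higher in epithelium and 455 higher in stroma. Figures were drawn with Python 3.11.15 and matplotlib 3.10.9.

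Both captures of a cow share an animal per the series design, so the numbers pair the arrays. Deviations from the tissue means correlated between the captures of a cow at 0.03 to 0.20, over 0.1 in cow 1 alone. In cows 2 and 3 the highest correlation with another cow (0.027 and 0.040) exceeded that within the cow (0.026 and 0.036). The pairing therefore comes from the design.

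Genes were named where they passed the threshold, had the largest difference of their role in either direction, or belonged to the immune, activator, E1, modifier, variant or mitosis lists or to genes with several probe sets. PSMA7, PSMB1, PSMD1, UBE2E1, UBE2K and TAP1 and the further genes of the closing section were chosen after their values were seen. The members and lists were chosen with earlier results of these data known. Alternatives were no block, a random block, another prior, other filters, renewed quantile normalization, centring, the mean over probe sets, and leaving out cows.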

Additional observations from a re-analysis of the deposited data

Results flagged for a closer look

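In 7 of 86 groups of 6 arrays examined, 1 array stood apart from the others by Dixon's criterion, which flags about 1 in 20 groups by chance. These groups did not cover every member. PSME4 read 2.60 in epithelium of cow 3, against 7.45 to 7.98 in the other cows. PSME2 read 8.10 on the same array, against 5.90 to 6.55. NEDD4L was also lowest there, at 2.48 against 6.34 to 7.85. In stroma, PSMC4 read 6.24 in cow 2 against 3.40 to 4.23, and PSMD10 read 6.12 in cow 3 against 3.30 to 3.97. PSMC6 read 2.50 in stroma of cow 5, against 5.63 to 6.49, while its second probe set read 5.59 on that array. UBE2S, which was not tested, read 6.25 in stroma of cow 4, against 2.49 to 3.17 in the other cows. Outside the groups examined, UBE2D3 read 4.26 in stroma of cow 5, against 8.46 to 9.06 in the other cows.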

How the results depend on the processing

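The count of members called in either direction, all higher in epithelium, was 3. Without the block for cow it was 1 (UBE2L6), and with a random block 2 (UBE2B and UBE2L6), so neither fit called UBE2Z, PSMA5 or PSMB3. It was 0 with an intensity trend and robust prior, 0 after renewed quantile normalization, 0 after centring on the median of tested probe sets, 2 without a filter, 1 with probe sets above the array median on at least 8 arrays, 3 with the brightest 5000 and 5 with the mean over probe sets. It was 0 to 0 when each cow was left out in turn, 0 without cows 5 and 6 and 0 without cows 4, 5 and 6. No member was called higher in stroma in any of these. Centring moved the median of all tested genes from -0.20 to -0.02 and the regulatory median from -0.71 to -0.53, with 43 of 60 members (71.7%) below 0 against 51.2% of tested genes. The calls over all tested genes, 241 higher in epithelium and 234 in stroma, became 177 and 264. The core, regulatory and conjugating medians stayed below 0 in all settings run, while the activating median, over 4 genes, was 0.0017 without cows 5 and 6 and 0.18 without cows 4, 5 and 6. The conjugating median moved to -0.88 with the brightest 5000 probe sets, which held 15 of these genes, and to -0.83 without cows 5 and 6. The median of all tested genes was -0.32 and -0.16 in these settings. With each cow left out in turn the conjugating median ranged from -0.66 to -0.22. The core median ranged from -0.88 (without cow 6) to -0.26 and the regulatory median from -0.81 to -0.54. Without cows 4, 5 and 6 the core median was -0.95, and without cows 5 and 6 the regulatory median was -0.47.

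Sign changes occurred in genes that were not called. After renewed quantile normalization PSMB7 had 0.11 and PSMD6 0.081. After centring PSMB7 had 0.16, PSMB8 0.13, PSMD6 0.17 and UBE2C 0.0081. With the mean over probe sets UBE2V2 had 0.13 and UBE2A 0.17. Without cows 5 and 6 PSMB9 had 0.28, PSMB10 -0.14, UBE2V2 0.082, PSMC6 0.32 and PSMD6 0.28. Without cows 4, 5 and 6 UBE2Q1 had -0.41, PSMB10 -0.96, UBA1 0.16, UBE2C 0.087, PSMC6 0.17 and PSMD6 0.42, and PSMB10 against PSMB7 was -0.55. With each cow left out in turn, the ranges were -0.062 to 0.82 for UBA3, -0.36 to 0.48 for UBA6, -0.0026 to 0.83 for PSMA4, -1.11 to 0.14 for PSMB6, -0.19 to 0.13 for PSMB7, -0.29 to 0.21 for PSMB8, -0.66 to 0.55 for PSMB9, -0.022 to 1.20 for PSMB10, -0.77 to 0.19 for PSMC6, -0.69 to 0.38 for PSMD6, -0.68 to 0.60 for PSME4, -0.48 to 0.057 for UBE2V2, -0.67 to 0.27 for UBE2C and -0.022 to 1.23 for UBE2G2. For PSMB9 against PSMB6 the range was -0.62 to 1.19, and for PSMB10 against PSMB7 -0.031 to 1.07. The cause of these changes was not tested.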

Other observations

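The other parts of the pathway list held no further call. Of 15 tested enzymes of other modifiers, 11 (73.3%) had a difference below 0, against 60% of all tested genes. UFC1, the E2 of the UFM1 modifier, had -1.80 (adjusted p 0.0691, limma) and COPS3, a subunit of the COP9 signalosome that removes NEDD8 from cullins, -1.82 (adjusted p 0.0701), both lower in stroma in 6 of 6 cows. COPS4, a subunit of the same complex, had 1.29 (adjusted p 0.246) and was higher in stroma in 5 of 6 cows. PSMF1, an inhibitor of the core particle, had -1.58 (adjusted p 0.117). TXNL1, a redox protein bound to the proteasome, had -2.45 (adjusted p 0.0601) and was lower in stroma in 6 of 6 cows, with stroma of cow 5 at 0.85. NFE2L1, the transcription factor that raises proteasome genes when the proteasome is short, had -0.94 (adjusted p 0.355). VCP, the segregase that extracts ubiquitinated proteins, had 0.24 (adjusted p 0.761). Of 9 tested antigen processing genes 0 were called, against 9.1% of all tested genes in either direction. B2M, the light chain of class I molecules, had -0.40 (adjusted p 0.509, limma).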
